A study of Homo sapiens with 2 samples.

Results

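The genes described here are the DNA repair and Fanconi anemia genes named in ALKBH5 RNA immunoprecipitation tables from HL-60 cells. They number 136 symbols of the 5614 in the deposited GO and KEGG tables, which list the genes of the authors' peaks. The members were chosen by the listing itself: a symbol was taken if the KEGG rows Fanconi anemia pathway or Homologous recombination, or the GO row DNA repair, named it. Symbols that a DNA replication row of either table also named were left out, which removed 48 of 184. Being listed is therefore what selected these genes and is a description, with no test.

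HL-60 is an established human promyelocytic leukaemia line, and ALKBH5 is an RNA demethylase that acts on N6-methyladenosine (m6A). RNA held by an ALKBH5 antibody was sequenced beside RNA of the whole lysate, in 1 library each. Both libraries are labelled HL60 cells with the genotype ALKBH5, and no treatment, time or second genotype is given. The names of the 3 deposited tables carry the label Ctrl. The title of each library names the opposite kind from its library name, so neither library was assigned to a group. The tables hold no value per library and no level per gene, so each gene is described only as listed or not listed, the read depth behind it is unknown, and there is no replicate check. A gene enters the GO and KEGG tables only through a term whose deposited p-value was under 0.05, so a gene that is absent from them can still have carried a peak. Of 7 promyelocytic markers, MPO, PRTN3 and CD33 were listed, while ELANE, AZU1, CTSG and CEBPE were not. Of 7 genes chosen as markers of other cell types, EPCAM, KRT18 and PECAM1 were listed, and CD3E, COL1A1 and HBB were among those not listed. Both sets thus had 42.9% listed, beside 26.9% of protein-coding genes, so listing did not tell the sets apart. ALKBH5 and FTO, the other m6A demethylase, were both listed. More cells carrying an RNA and more RNA per cell cannot be told apart in a bulk lysate.

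The Fanconi anemia pathway repairs crosslinks that tie both DNA strands together. A multi-subunit ubiquitin ligase, the core complex, marks the FANCD2-FANCI clamp, nucleases then cut around the crosslink, translesion polymerases copy past it, and homologous recombination rebuilds the broken sister strand. Other lesions go to base excision, nucleotide excision, mismatch repair or end joining, and blood precursor cells are known to depend strongly on crosslink repair.

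In the authors' deposited table the Fanconi anemia pathway row held 38 entries against 54 background genes, with a rich factor (fold over the overall share) of 2.11, a p-value of 0.00289 and a corrected p-value of 0.127. The authors' deposited table gave Homologous recombination 29 entries of 41, a rich factor of 2.12, a p-value of 0.00815 and a corrected value of 0.218. It gave DNA repair, in the authors' deposited table of GO terms, 155 entries of 224, a rich factor of 2.08, a p-value of 2.19e-07 and a corrected value of 1.25e-04. These values chose the members and support nothing further, and of the 3 rows only DNA repair kept a corrected value under 0.05. Several symbols can share 1 gene identifier, so the rows were also counted by identifier. Then 35 identifiers made up 64.8% of the Fanconi background (95% exact Clopper-Pearson interval 50.6 to 77.3%, counting error only, as for each interval given here), 28 made up 68.3% for Homologous recombination (51.9 to 81.9%) and 144 made up 64.3% for DNA repair (57.6 to 70.6%). Counted alike, the share was 58.1% for the KEGG row Cell cycle, 59.3% for Spliceosome and 72.2% for DNA replication.

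The members rest on 126 distinct gene identifiers on 21 chromosomes. Counted by symbol, the Fanconi row named 26 of the 136 members, Homologous recombination 17 and DNA repair 113. A set of 3 members stood in all 3 rows, 14 members in a pair of rows and 119 in a single row. Broad categories named nearly every one again: 133 of the 136 members were also in another listed term, and BRIP1, FAN1 and RAD54L were seen only through the rows that chose them.

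To see what the rows covered, 12 lists of repair genes (245 genes in all) were set against the 3 tables. Of these genes 149 were listed, or 60.8% (54.4 to 67.0%), where 26.9% of the 20056 protein-coding genes were listed. With the 3 choosing rows removed, 146 of the 245 were still listed, and the share among protein-coding genes was again 26.9%. The 149 comprised 61 members, 33 genes left out because they are also DNA replication entries, 54 genes that only other terms named, and SLX4IP, which stood in the family table alone. Repair genes are well annotated, which favours listing through some term, and the part of annotation in this share was not tested.

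**Figure D1:**
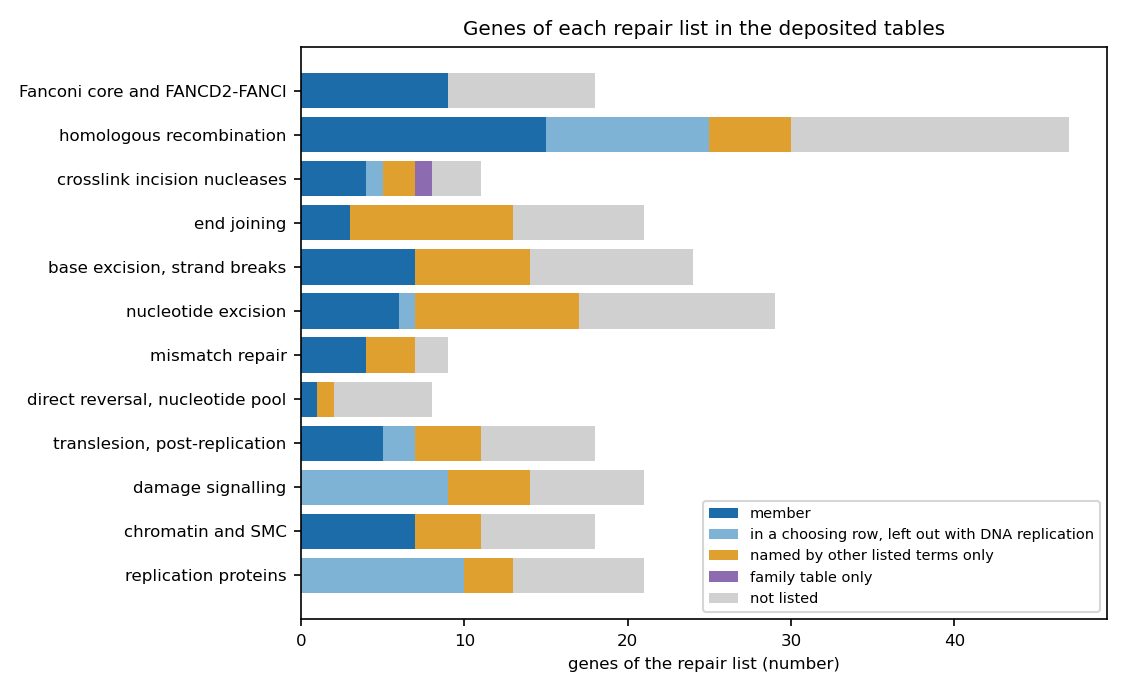
Number of genes (x axis) of each of 12 repair lists (y axis), split by colour into members, genes left out with DNA replication, genes named by other listed terms, genes of the family table alone and genes not listed. The member colour is absent from damage signalling and replication proteins, while most listed end joining genes are named by other terms.

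Members of the Fanconi ubiquitination step came to 9 of the 18 genes on that list (50%, 26 to 74%). That interval holds both the 26.9% of protein-coding genes and the 60.8% of all list genes. FANCL, the ligase subunit, was listed with FAAP100, which holds the catalytic module together, and with FANCA and FANCG, which form a subcomplex of their own. FANCC and FANCE, which bring FANCD2 to the ligase, were listed too. FANCB, FANCF and FAAP20 were not, leaving 6 of 9 core subunits. FANCM, the translocase that anchors the core complex on DNA, was the 1 listed gene of its 4-gene anchor list, since FAAP24, CENPS and CENPX were absent. Both subunits of the clamp, FANCD2 and FANCI, were listed, while USP1 and WDR48, which strip its ubiquitin, and UBE2T, which loads it, were not. No gene of this list was left out with DNA replication or named by other terms alone: the 9 listed genes are all members.

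Crosslink incision was represented by MUS81, by EME1 and EME2, its alternative partner subunits, by FAN1, and by ANKLE1, a nuclease of branched DNA placed here by its role. SLX4, the scaffold that holds MUS81 and EME1, was listed but left out with DNA replication, as was ERCC4. GEN1, a resolvase of recombination junctions, and DCLRE1A, a crosslink exonuclease, were named by other terms. SLX1A, SLX1B and DCLRE1B were not listed, so 8 of the 11 genes of this list were seen (72.7%, 39.0 to 94.0%). Of the 7 subunits of the SLX4 scaffold list, 5 were listed.

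Homologous recombination gave 26 members on 22 identifiers. RAD51B, RAD51C, RAD51D, XRCC2 and XRCC3, which assist strand exchange, were members. BRCA2, a mediator of strand exchange, and PALB2, which bridges it to BRCA1, were members, while BRCA1 and BARD1 were listed but left out with DNA replication and SEM1 was not listed. RAD52, an annealing protein, the translocases RAD54B and RAD54L, and the helicases BRIP1, RECQL and RTEL1 were members as well. TOP3B, a topoisomerase of DNA and RNA, UIMC1, which reads ubiquitin chains at breaks, EMSY, a BRCA2 partner, and BOD1L1, which protects stalled forks, completed the larger proteins. NABP1 and INTS3 belong to a complex that binds single-stranded DNA, EEPD1 is a nuclease of stalled forks, and C5orf45 (now MRNIP) binds the MRN complex.

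Several recombination complexes were incomplete. MRE11 and NBN of the MRN complex were listed and left out with DNA replication, and RAD50 was not listed. BLM and TOP3A of the dissolvasome were left out likewise, and RMI1 and RMI2 were not listed. All 5 RecQ helicases were listed, with RECQL a member and BLM, WRN, RECQL4 and RECQL5 left out. UIMC1 was the 1 listed gene of the 5 in the BRCA1-A list, without ABRAXAS1, BABAM1, BABAM2 and BRCC3. Over the whole recombination list 30 of 47 genes were listed (63.8%, 48.5 to 77.3%). The absent 17 included the end resection genes RBBP8 and EXO1.

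**Figure D2:**
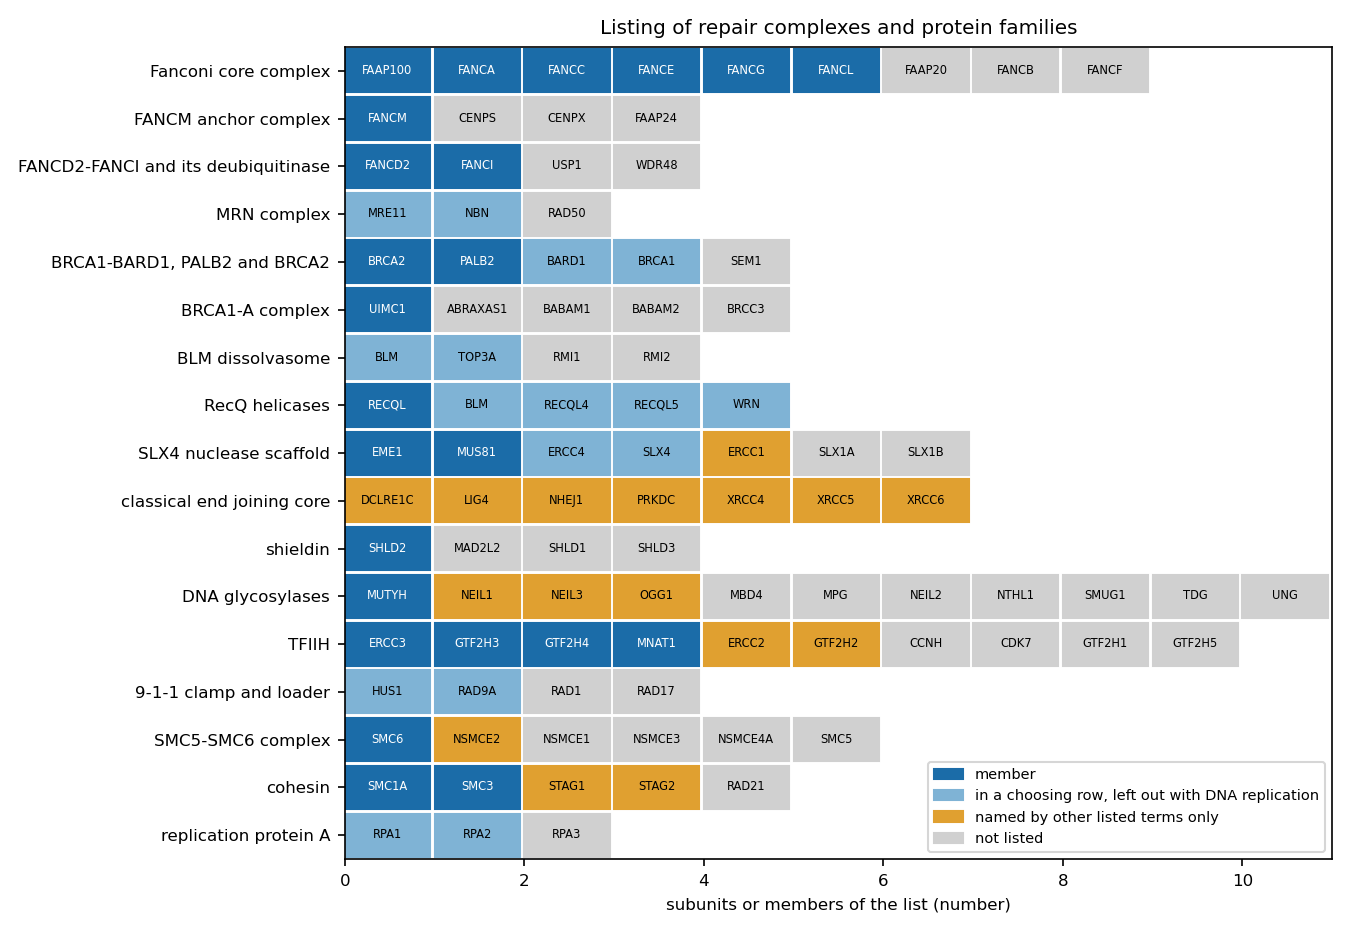
Listing of 17 repair complexes or protein families (y axis), with 1 box per gene and the number of genes on the x axis. Boxes of the classical end joining core are all named by other terms, and the shieldin, BRCA1-A and FANCM anchor lists have 1 listed gene each.

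End joining was listed largely outside the choosing rows. The 7 genes of the classical core were all listed: XRCC5 and XRCC6, the Ku ring, PRKDC, its kinase, DCLRE1C, the end-trimming nuclease, and LIG4, XRCC4 and NHEJ1, which seal the break. None of them is a member, since the 3 choosing rows name none. The members of this route are POLQ, the polymerase of microhomology joining, LIG3, its ligase, FAM35A (now SHLD2), a shieldin subunit, and NONO, an RNA-binding protein that promotes joining. SHLD1, SHLD3 and MAD2L2, the rest of the shieldin list, were not listed. The SHLD3 span on chromosome 5 (65625027 to 65630928) lies inside that of the member TRAPPC13 (65625027 to 65666233). TRAPPC13 was named by DNA repair and by site of double-strand break, and its entry cannot be told apart from SHLD3. In all 13 of the 21 end joining genes were listed (61.9%, 38.4 to 81.9%), and of the 38 entries that the authors' deposited table gave to double-strand break repair via nonhomologous end joining, 3 were members, SMARCAL1 and UIMC1 among them.

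Base excision and strand break repair contributed 9 members. APEX1 cuts the DNA backbone at a lost base, MUTYH is the glycosylase that removes adenine opposite an oxidised guanine, and TDP1 frees trapped topoisomerase. PARP1, PARP2 and PARP3 mark breaks with ADP-ribose, PARP4 belongs to the same family, and ADPRHL2 (now ADPRS) removes the mark from serine. Of the 11 glycosylases 4 were listed (36.4%, 10.9 to 69.2%), an interval that holds both the 26.9% of protein-coding genes and the 60.8% of all list genes: MUTYH, and through other terms NEIL1, NEIL3 and OGG1. UNG, SMUG1, TDG, MBD4, NTHL1, NEIL2 and MPG were not listed. OGG1 was paired only with the identifier of CAMK1, whose gene lies inside the OGG1 span on chromosome 3, so that entry cannot be told apart from CAMK1. Of the 24 genes of this list 14 were listed (58.3%, 36.6 to 77.9%).

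Nucleotide excision repair contributed 9 members on 8 identifiers. XPC recognises the lesion, DDB1 is the adaptor of a ubiquitin ligase at ultraviolet damage, and ERCC3, GTF2H3, GTF2H4 and MNAT1 are subunits of TFIIH, the complex that opens the DNA. USP45 is a deubiquitinase acting on ERCC1, and MMS19 helps put iron-sulfur clusters into repair enzymes. ERCC2 and GTF2H2 were listed by other terms, so 6 of the 10 TFIIH genes were listed, and GTF2H1, GTF2H5, CDK7 and CCNH were not. ERCC1, the partner of ERCC4, was paired only with the identifier of POLR1G, which overlaps it on chromosome 19. Of the 29 genes on this list 17 were listed (58.6%, 38.9 to 76.5%). XPA, which verifies the lesion, DDB2 and ERCC8 were among the 12 absent.

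Mismatch repair had the highest share of the 12 lists, with 7 of 9 genes listed (77.8%, 40 to 97.2%), an interval that holds the share of each other list except direct reversal. MSH6, of the mismatch sensor, and PMS2, of the endonuclease, are members. MLH3, PMS1 and MSH5 were named by other terms, while MSH3 and MSH4 were not listed. Direct reversal had the lowest share, 2 of 8 (25%, 3.19 to 65.1%), an interval that also holds the 26.9% of protein-coding genes. MGMT, which takes alkyl groups off guanine, is a member, and SAMHD1 was named elsewhere. The demethylases ALKBH1, ALKBH2 and ALKBH3, relatives of ALKBH5, were not listed. RNF113A, a ubiquitin ligase of the alkylation response, is a member placed here by its role.

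Translesion and post-replication repair gave 6 members on 5 identifiers. REV3L is the catalytic subunit of polymerase zeta, POLK copies past bulky adducts, SHPRH adds ubiquitin chains to the PCNA clamp, and SMARCAL1 and ZRANB3 reverse stalled forks. POLH and POLI were left out with DNA replication. REV1, MAD2L2, RAD18 and the conjugating enzymes UBE2A and UBE2B were absent, and 11 of 18 genes were listed (61.1%, 35.7 to 82.7%).

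None of the 14 listed genes on the damage signalling list of 21 is a member. ATM, ATR, ATRIP, TOPBP1, RAD9A, HUS1, CHEK1, CLSPN and TIMELESS were removed as DNA replication entries, and CHEK2, H2AX, MDC1, RNF168 and TIPIN were named by other terms. RAD1 and RAD17 of the 9-1-1 clamp and loader were not listed, nor were RNF8 and ETAA1. The 13 listed genes of the list of shared replication proteins are likewise outside the members, and RPA1 and RPA2 of replication protein A were left out with RPA3 not listed. The 17 signalling members, placed by textbook role or by the rows, are therefore regulators around the checkpoint. TELO2 stabilises the large kinases, SMG1 is one of them, and CEP164 links ATR signalling to the centrosome. CSNK1E, CDK9 and PPP5C are kinases and a phosphatase, FZR1 and PTTG1 act around anaphase and mitotic exit, TTC5 and JMY are transcription cofactors, CDC5L is a splicing factor that binds ATR, and HINFP, MEN1, HSF1 and NPM1 act in transcription or the nucleolus. MB21D1 (now CGAS) senses DNA in the cytosol.

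Chromatin genes formed a group of 25 members on 24 identifiers. SMC1A and SMC3 are the core of cohesin, whose STAG1 and STAG2 were named by other terms and whose RAD21 was not listed. SMC6 is a core subunit of the SMC5-SMC6 complex, of which NSMCE2 was named elsewhere and SMC5, NSMCE1, NSMCE3 and NSMCE4A were absent. SLF1 recruits that complex to stalled forks and PDS5B regulates cohesin. INO80, INO80D, MCRS1, NFRKB, RUVBL1 and RUVBL2 belong to the INO80 remodeller, and TRRAP, DMAP1 and MORF4L2 to the NuA4 acetyltransferase. CHD1L and ATRX are remodellers, DDX11 is a cohesion helicase and ASF1A is a histone chaperone. DOT1L, KMT5C and SIRT7 modify histones, and HDAC10 belongs to the histone deacetylase family. TRIM28 builds heterochromatin, and MUM1 (now PWWP3A) binds chromatin. Of the 18 chromatin genes on the list 11 were listed (61.1%, 35.7 to 82.7%).

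Ubiquitin and proteasome members included OTUB1, a deubiquitinase and an inhibitor at breaks, the ligases TRIP12 and UHRF1, and the conjugating enzyme UBE2W. They also included USP51, which acts on histone H2A, VCP, which extracts ubiquitinated proteins, and PSME4, a proteasome activator. The remaining entries of the DNA repair row were FH, a Krebs cycle enzyme, RPS3, a ribosomal protein with repair activity, KIF22, a chromosome motor, GLTSCR2 (now NOP53), a nucleolar protein, POLG2, of the mitochondrial polymerase, WRAP53, of telomerase, WDHD1, a replication fork protein, ZMPSTE24, a lamin protease, TRAPPC13, a trafficking protein, and FSCN1. FSCN1, which encodes the actin-bundling protein fascin, was named by 15 terms that included podosome and ruffle and also interstrand cross-link repair, homologous recombination and nucleotide excision repair.

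A set of 10 members carries the identifier of another gene, which is 7.35% of the 136, where 8.10% of all 5614 GO and KEGG entries do. MAPK12, a stress kinase, was paired only with the identifier of HDAC10, its neighbour on chromosome 22 (MAPK12 from 50252901 to 50261683, GRCh38.p14, with 1635 bases between the genes). RTEL1-TNFRSF6B, a readthrough transcript, was paired with RTEL1, which it overlaps on chromosome 20. The other 8 are clone-style names with no match in the reference, among them LL22NC03-86G7.1 on TOP3B's identifier, AL513523.2 and RP11-216N14.8 on INTS3's, AC093495.4 on XPC's, RP5-1112D6.8 on REV3L's, RP11-1035H13.2 on SMG1's and AC009133.21 on KIF22's. For these 9 shared identifiers the tables do not show which transcript carried the peak.

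The number of listed terms that name a member says how broadly it is annotated among the enriched terms. Members were named by a median of 10.5 terms (range 1 to 30), against 4 (1 to 40) over all GO and KEGG entries. The rows compared had medians of 13 for DNA replication, 14 for Cell cycle and 11.5 for Spliceosome, and the 48 genes left out had 15. PARP1 and VCP were named by 27 terms each and ERCC3 by 26. FAN1 and RAD54L were named by 1 term, and BRIP1, EEPD1 and POLK by 2. Route medians ran from 5.5 for direct reversal to 14 for nucleotide excision and mismatch repair, and Fanconi members had 8 (4 to 12). A member enters through a row that already counts as 1 term, and without the 3 choosing rows the median was 9.5.

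**Figure D3:**
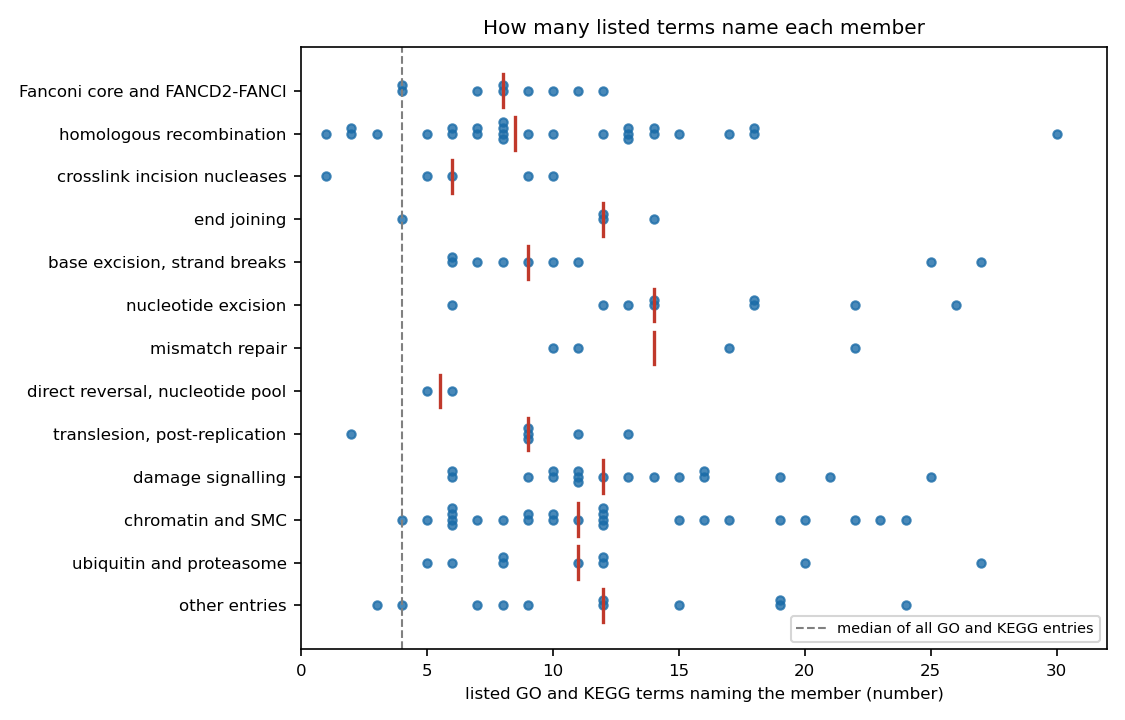
Number of listed GO and KEGG terms naming each member (x axis, 1 point per member) by repair route (y axis), with red bars for route medians and a dashed line at the median of all entries, 4. Each route median lies above 4.

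Location terms placed most members in the nucleus. Because repair terms chose the members, high shares in nuclear or DNA-processing terms describe that choice and not ALKBH5 binding. Nucleoplasm named 113 members (83.1%), beside 34.5% of all 5614 GO and KEGG entries, and nucleus named 105 (77.2%), beside 41.3%. Nucleolus named 21 (15.4%, beside 8.67%), while cytosol named 51 (37.5%), a lower share than the 43.9% of all entries. Mitochondrion named 14 members, LIG3, MUTYH, POLG2 and FH among them, and this share of 10.3% is near the 10.2% of all entries. RNA binding named 21 (15.4%), NONO, NPM1, RPS3 and TOP3B among them, which is likewise near the 14.6% of all entries. Replication fork processing and DNA helicase activity each named 12 members (8.82%), beside 0.445% and 0.926% of all entries, and both of these sets held ATRX, DDX11, RTEL1, SMARCAL1 and ZRANB3. For DNA helicase activity the authors' deposited table gave 52 entries of 58 and a corrected p-value of 0.00712. For interstrand cross-link repair the authors' deposited table gave 33 entries of 50 and a corrected p-value of 0.743, and 16 of those entries are members. For double-strand break repair via homologous recombination the authors' deposited table gave 58 of 82 and 0.116, with 19 members among the entries.

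The third deposited table sets symbols beside the names of 4 RNA-binding protein families and was not used to choose members. It named 24 of the 136 members, or 17.6% (11.6 to 25.1%), beside 19.8% of the 5614 GO and KEGG symbols, a share that lies inside the members' interval. For comparison it named 15 of 103 symbols of the DNA replication rows (14.6%), 10 of 75 of Cell cycle (13.3%), 7 of 84 of Spliceosome (8.33%) and 10 of the 48 left out (20.8%). Of the 24 members 19 were paired with all 4 families and 5 with 3. Among the 1111 GO and KEGG symbols in the family table, 708 had all 4. All 24 members were under RRM (RNA recognition motif) and CSD (cold shock domain). These families name 1348 and 1342 of the 1348 symbols there, so this pairing is no trait of the members. The combined CCHC ZF,RRM entry named 22 members (893 of the 1348 symbols) and PUF named 21 (1183 of the 1348).

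By route, the 24 were FAAP100, FANCA and FANCM of the Fanconi step (3 of 9), 7 of 26 recombination members, 7 of 25 chromatin members, 6 of 17 signalling members and UHRF1 among the 9 ubiquitin members. The recombination members were BOD1L1, EMSY, INTS3, RAD52, TOP3B, LL22NC03-86G7.1 and RTEL1-TNFRSF6B. The chromatin members were DDX11, MAPK12, MUM1, PDS5B, SLF1, SMC1A and TRRAP, and the signalling members CEP164, CSNK1E, FZR1, MB21D1, SMG1 and TELO2. The other 8 routes, with 50 members in all, had none. Each of these 8 is small, and even the one with most members, the 11 remaining entries of the DNA repair row, has an interval that reaches 28.5%, above the 19.8% of all symbols. MAPK12, placed with the chromatin members only by the identifier of HDAC10, was paired with 4 families while HDAC10 was in none. RTEL1-TNFRSF6B was paired with 3 while RTEL1 was in none. LL22NC03-86G7.1 and TOP3B, which share an identifier, were each paired with 4.

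**Figure D4:**
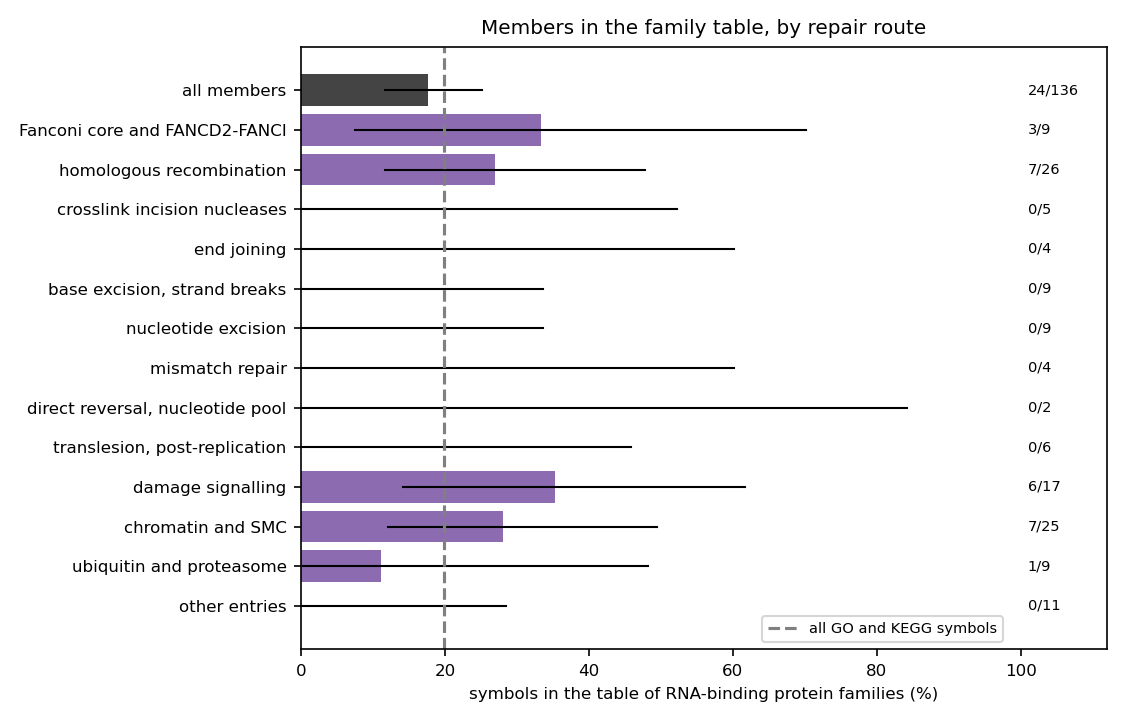
Share of members in the family table (x axis, percent) by repair route (y axis), with exact 95% intervals as black lines, counts at the right and a dashed line at the 19.8% of all GO and KEGG symbols. Each interval includes the dashed line, and 8 routes stand at 0.

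Member genes had a median genomic length, introns included, of 36.4 kb (range 1.26 to 863 kb), close to the 35.4 kb of all listed protein-coding genes, where those not listed had 20.1 kb. The longest included RAD51B with 863 kb on chromosome 14 (67819779 to 68683096, GRCh38.p14), ZRANB3 with 334 kb, MGMT with 304 kb and ATRX with 281 kb. The shortest were RNF113A with 1.26 kb on chromosome X (119870475 to 119871733), APEX1 with 2.54 kb, CDK9 with 4.76 kb, ADPRS with 5.04 kb and USP51 with 5.23 kb. Among the 245 list genes the 149 listed had a median of 44.3 kb and the 96 not listed 24.8 kb. The listed genes had the longer median in 9 of the 12 lists, as in the Fanconi list (73.3 kb against 12.4 kb). The order was the opposite in nucleotide excision (32.3 kb listed against 43.7 kb), mismatch repair (38.2 against 169 kb) and translesion repair (56.5 against 67.3 kb).

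The share listed was lowest for genes under 10 kb, among repair genes and among all protein-coding genes, though for repair genes the intervals of that class and the next overlap. Under 10 kb, 16 of 42 list genes were listed (38.1%, 23.6 to 54.4%), beside 14.0% of protein-coding genes of that length. From 10 to 30 kb the share was 29 of 55 (52.7%, 38.8 to 66.3%) beside 29.4%. From 30 to 100 kb it was 75 of 108 (69.4%, 59.8 to 77.9%) beside 34.8%, and at 100 kb or more it was 29 of 40 (72.5%, 56.1 to 85.4%) beside 32.1%. Repair genes thus had the higher share in each of the 4 classes, where the part of their fuller annotation was not tested. The part of length in the listing of single genes was not tested either.

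**Figure D5:**
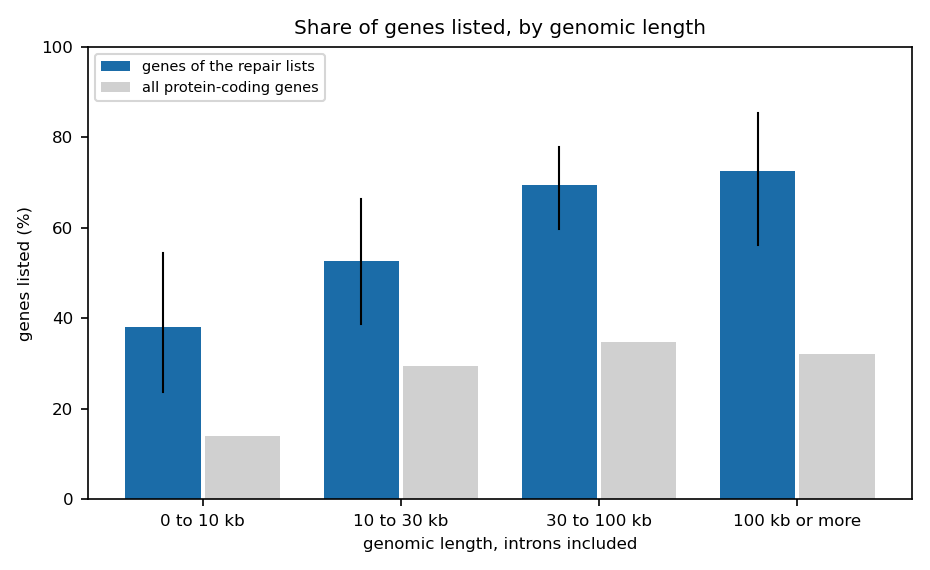
Share of genes listed (y axis, percent) in 4 classes of genomic length (x axis), for the 245 genes of the repair lists (blue, with exact 95% intervals) and all protein-coding genes (grey). The blue bars run from 38.1 to 72.5% and exceed the grey bars in each class.

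Some member genes start back to back with a neighbour, and 3 such windows are shown because the RNAs of both genes were listed. Of the 105 member genes with an entry in the RefSeq promoter table (GRCh38.p14), 29 had a start of the opposite strand within 1000 bases upstream (27.6%, 19.3 to 37.2%), beside 23.9% of listed and 18.0% of all protein-coding genes. In 23 pairs the partner codes for protein, and in 11 of these it was listed too (47.8%, 26.8 to 69.4%), beside 42.2% for the partners of all listed protein-coding genes. The closest listed pairs were EME1 with MRPL27, a mitochondrial ribosomal protein gene, 45 bases apart, SMC6 with GEN1 59 bases apart, and SLF1 with KIAA0825 65 bases apart. SMC6 with GEN1 joins a member to the resolvase of the incision list. These distances are between starts, and gene records can still overlap. SMC6 ends at 17753810 and GEN1 begins at 17753278, while SLF1 begins at 94618231, before the KIAA0825 start at 94618604. For these pairs a single peak could name both genes. The windows run 5′ to 3′ on the member's strand from 250 bases before its start to 50 after, and the capitals mark the stretch from the partner's start to the member's start.
EME1: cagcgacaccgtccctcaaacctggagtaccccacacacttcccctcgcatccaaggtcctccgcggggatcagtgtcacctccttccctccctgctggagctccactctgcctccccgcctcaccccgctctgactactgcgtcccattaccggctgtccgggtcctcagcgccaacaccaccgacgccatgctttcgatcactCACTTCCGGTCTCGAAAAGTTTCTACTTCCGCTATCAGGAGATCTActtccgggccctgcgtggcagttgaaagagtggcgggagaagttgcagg
SMC6: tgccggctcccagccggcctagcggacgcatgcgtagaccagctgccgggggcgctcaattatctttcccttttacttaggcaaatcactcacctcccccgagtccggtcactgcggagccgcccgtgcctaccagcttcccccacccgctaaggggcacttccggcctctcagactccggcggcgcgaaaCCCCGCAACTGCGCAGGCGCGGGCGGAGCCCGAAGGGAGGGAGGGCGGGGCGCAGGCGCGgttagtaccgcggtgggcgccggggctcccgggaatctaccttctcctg
SLF1: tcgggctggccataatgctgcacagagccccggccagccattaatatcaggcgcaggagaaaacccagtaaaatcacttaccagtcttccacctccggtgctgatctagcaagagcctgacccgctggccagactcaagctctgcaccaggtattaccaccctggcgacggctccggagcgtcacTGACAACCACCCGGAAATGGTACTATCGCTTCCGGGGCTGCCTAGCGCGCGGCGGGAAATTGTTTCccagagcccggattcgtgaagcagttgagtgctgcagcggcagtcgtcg
The EME1 window is chr17:50372979-50373278 on the plus strand, the SMC6 window chr2:17753761-17754060 on the minus strand and the SLF1 window chr5:94618419-94618718 on the plus strand. Their GC content is 61.0%, 69.3% and 59.3%.

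The same windows were searched on both strands for 4 letter patterns. CCGGAAGT, a binding sequence of ETS factors, was found in 16 of the 105 member windows (15.2%, 8.97 to 23.6%), beside 10.6% of windows of listed and 6.16% of all protein-coding genes. Its members included BRCA2, FANCD2, PALB2, ERCC3, GTF2H3, POLQ, SMC6 and, with a pair of matches, EME1. GCATGCGC, the core of the NRF1 sequence, was found in 7 windows (6.67%, 2.72 to 13.3%), beside 5.92% and 4.28%. TTTCGCGC or TTTGGCGC, forms of the E2F sequence, were found in those of FANCC and SMC6 (1.90%, 0.232 to 6.71%), beside 2.48% and 1.65%, and TTTGAA, the CHR element, in 11 (10.5%, 5.35 to 18.0%), beside 10.2% and 12.2%. A match describes letters in the window only.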

How the data were processed

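The data were 3 tables of the whole series, made by the authors from ALKBH5 RNA immunoprecipitation of HL-60 cells. Per the file headers, the GO and KEGG tables give the entries of each term (a gene identifier paired with a symbol), the number of entries and of background genes, a rich factor, which is a fold (ratio), and a deposited p-value with its corrected value. The third table, also deposited by the authors, pairs symbols with families and holds no number. The submitters' processing notes name the genome build hg38. Not given in the sources used here are the aligner, the peak caller, its thresholds and the use made of a rabbit IgG incubation that the series' design text describes. No IgG library was analysed here.

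Members were selected by script (Python 3.11.15, scipy 1.17.1, figures with matplotlib 3.10.9), and symbols, older ones included, were looked up in RefSeq's GRCh38.p14 gene list. Of the 136 members, 120 matched by current symbol, 6 by an older symbol and 10 only through another gene's identifier. A gene was called listed if any table named it. Routes came from 12 lists for 64 members and from textbook roles for 72. The members and lists were chosen with earlier results of these data known. Apart from some items that are not reported here, each member was named under its route, together with the subunits of 19 complex lists, the members with the most and fewest terms, and the 5 longest and 5 shortest genes. Shares carry exact Clopper-Pearson 95% intervals. No test was run, as 1 library of each kind and tables without values per library allow none. The counting script was tested on simulated tables. Alternatives changed the identifier, table, rows and background used.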

Additional observations from a re-analysis of the deposited data

How the results depend on the processing

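Over the 60 alternatives computed, 57 values stayed within 1.5 times the reported one or inside its interval, and 3 moved. With the KEGG rows alone there were 34 members and not 136. With all protein-coding genes as background, the share in the family table was 6.15% and not 19.8%. The interval of the members' 17.6% (11.6 to 25.1%) holds the 19.8% and lies above the 6.15%. The 19.8% is the like comparison, since it covers listed symbols as the members are, while most protein-coding genes were not listed. Counting biological process terms alone, the median number of terms per member was 3 and not 10.5. Counting only symbols paired with their own identifier, 146 of the 245 list genes were listed and 21 of 126 members were in the family table (16.7%). No paired analysis was possible because the labels give no replicate numbers and no result comes from a test. Depth is unknown, and no count here separates an antibody signal from abundant RNA.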
